A study of Sus scrofa with 6 samples.

Results

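The motile cilium and axoneme genes followed here are the 56 genes, of 30477 in the count matrices, whose symbol starts with CFAP (30 genes), DNAH (9), DNAI (4), RSPH (6) or TEKT (4), together with FOXJ1, SNTN and CCNO. They were chosen by name, with earlier results of these data known. The samples were porcine midbrain-like organoids (pMLOs) grown from the embryonic stem cell line IVF_1_ pESC_FIW, a single line, and sequenced as single cells on day 11, day 28 and day 45 (D11, D28 and D45), as libraries A and B of each day. All organoids had received SB431542, Noggin, SHH-C24II and CHIR99021, then FGF8, then BDNF and ascorbic acid, with Matrigel after D11, and the later medium also held GDNF, db-cAMP and DAPT, so D11 differs from the later days in medium as well as in age, D28 and D45 shared 1 medium, and no untreated arm was compared. The labels call the cells midbrain dopaminergic neurons, but the libraries were of whole organoids, and cells with a dopaminergic neuron marker profile were 0.324% to 4.67% of the D28 and D45 libraries. The paper calls the data of each day biological duplicates, and how many organoids a library holds is not stated. As all are of 1 line, p-values measure the spread between these libraries only.

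A motile cilium beats because dynein motors walk along its axoneme, a ring of microtubule doublets around a central pair. FOXJ1 is the transcription factor that switches on most of the genes for this machine, and multiciliated cells such as ependymal cells also amplify their centrioles, a step in which cyclin O (CCNO) acts. In the embryo, cells of the floor plate also carry FOXJ1 and a motile cilium, but a single one per cell, so that they use the axoneme genes without amplifying centrioles. DNAH genes encode the heavy chains of the dynein arms and DNAI genes their intermediate chains, RSPH genes encode parts of the radial spokes, and TEKT genes encode tektins, filaments inside the doublets. CFAP is a family of name only, which covers proteins inside the doublets (CFAP45, CFAP52), the central apparatus (CFAP46, CFAP74, CFAP221), the tether of the inner dynein arms (CFAP43, CFAP44) and others. SNTN, sentan, sits at the tips of motile cilia.

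The 6 libraries held 102940 cells after filtering, 13870 to 21553 per library, and 106805311 to 180034791 UMIs (unique molecular identifiers, each counting 1 captured RNA molecule). Median UMIs per cell ranged from 2300.5 in D45 A to 10757 in D11 A, so single-cell shares were also computed with cells thinned to 2000 UMIs, which leaves out the 33411 cells with fewer (1665, 6887, 5066, 2815, 9646 and 7332 from D11 A to D45 B). Libraries shared 54 to 111 cell barcodes with each other, at most 0.637% of the smaller library. Cells were clustered without the members, and classes were named from markers that include no member. Levels are in CPM: UMIs were added up over the cells of a group and scaled so that each sum held 1000000. Reads were counted near the 3′ ends of transcripts, so levels are compared between samples and not between genes.

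The genes lie on 14 chromosomes of Sscrofa11.1, as far as 46 of the 56 matched a RefSeq gene of that build by symbol, and span 3433 to 348284 bases with a median of 41539. RSPH6A was the 1 matched member to overlap another gene on its own strand, SYMPK, so its counts are less certain than the others, as are those of CFAP298-TCP10L, the name of a readthrough of CFAP298 with a neighbouring gene. In the 300 bases before the annotated starts, an RFX motif (GTTGCC or GTTACC, either strand) occurred in 16 of 46 members (34.8%) and in 3760 of 20624 genes with such a window (18.2%). A pair of facing RFX motifs 0 to 3 bases apart, the layout of the X-box that RFX factors bind, occurred in 2 members (4.35%) against 47 genes (0.228%). The forkhead letters GTAAACA (either strand) occurred in 2 members, CFAP43 and TEKT1 (4.35%), against 599 genes (2.9%). The windows of both members with a facing pair are printed together with 2 others that hold forkhead letters beside an RFX motif or 2 RFX motifs apart, from RefSeq on Sscrofa11.1, 5′ to 3′ on the strand of the gene, with the matched letters in capitals. They are chr4:90593564-90593863 on the plus strand for CFAP45 (ENSSSCG00000006394) and, on the minus strand, chr16:34390612-34390911 for CCNO (ENSSSCG00000026849), chr14:115201966-115202265 for CFAP43 (ENSSSCG00000010609) and chr3:60114275-60114574 for DNAH6 (ENSSSCG00000045529). A pair also counts as 2 motifs, and a match is a description of letters, not of binding.
CFAP45: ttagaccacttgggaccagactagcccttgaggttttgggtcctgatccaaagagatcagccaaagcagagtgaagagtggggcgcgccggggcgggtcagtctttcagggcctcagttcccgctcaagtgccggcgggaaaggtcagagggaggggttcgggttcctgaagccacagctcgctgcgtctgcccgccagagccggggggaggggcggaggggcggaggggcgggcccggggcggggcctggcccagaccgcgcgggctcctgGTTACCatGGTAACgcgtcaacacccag
CCNO: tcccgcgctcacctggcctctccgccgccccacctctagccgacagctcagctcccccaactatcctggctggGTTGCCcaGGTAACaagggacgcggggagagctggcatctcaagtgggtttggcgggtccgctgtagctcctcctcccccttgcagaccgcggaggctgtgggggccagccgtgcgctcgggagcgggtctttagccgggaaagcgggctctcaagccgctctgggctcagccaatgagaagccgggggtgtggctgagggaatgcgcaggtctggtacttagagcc
CFAP43: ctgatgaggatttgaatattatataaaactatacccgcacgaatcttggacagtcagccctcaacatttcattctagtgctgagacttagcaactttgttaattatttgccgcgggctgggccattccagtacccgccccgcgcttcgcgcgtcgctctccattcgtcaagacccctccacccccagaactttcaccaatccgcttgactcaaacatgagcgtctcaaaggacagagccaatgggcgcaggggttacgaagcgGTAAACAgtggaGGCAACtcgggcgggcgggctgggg
DNAH6: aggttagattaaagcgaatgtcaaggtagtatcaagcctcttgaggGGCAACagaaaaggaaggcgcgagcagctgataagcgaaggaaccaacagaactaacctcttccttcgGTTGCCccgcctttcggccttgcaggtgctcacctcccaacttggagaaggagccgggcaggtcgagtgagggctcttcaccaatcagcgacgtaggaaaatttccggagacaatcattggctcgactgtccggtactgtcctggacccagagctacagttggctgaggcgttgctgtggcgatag

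The pair of CFAP45, which encodes a protein inside the doublet, starts at position -28 from the gene start and that of CCNO at -227. The window of FOXJ1 itself (gene at chr12:5307370-5312117, plus strand) held none of these letters.

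Across whole organoids the members did not rise together with time. Of 55 members with enough counts to test, 1 rose and 10 fell from D11 to D28, 8 rose and none fell from D28 to D45, and 15 rose and 7 fell from D11 to D45 (edgeR quasi-likelihood test, adjusted p under 0.05). Over all 22192 genes tested, 12.5% were called higher and 10.6% lower on D28 than on D11, 4.47% and 4.93% on D45 than on D28, and 17.3% and 17.4% on D45 than on D11. At an unadjusted p under 0.05, 16 members were higher and 6 lower on D45 than on D28, and DESeq2's Wald test called 14 higher and 3 lower. No shares of all genes are given for counts at an unadjusted p or by DESeq2. Of the 8 and the 15 rises, 2 were CCNO and SNTN, which passed the filter on low counts through the D45 libraries alone. The median log2 fold change of the other 53 was -0.18, 0.41 and 0.15 in the 3 comparisons, beside 0.03, -0.03 and -0.01 over all genes. Over all 55, the median from D11 to D45 was 0.23, turned to -0.07 without D45 A and was 0.555 when no barcode was filtered out. That from D28 to D45 was 0.42, with 0.24 without D45 A and 0.86 when no barcode was filtered out. That from D11 to D28 was -0.14, with -0.04 without D11 B and -0.22 without D28 B. The counts also moved with single libraries. Shares of all genes are not given for the fits with a library left out. Their counts are therefore not read as results about the members. From D28 to D45, 25 members rose and 9 fell without D28 B, 13 rose and 1 fell without D28 A, 5 rose without D11 A or D11 B, 2 rose without D45 B, and none was called without D45 A. Between D11 and D28, 17 fell without D28 B but 2 without D11 A and 3 without D11 B, 6 rose without D28 B and 2 without D28 A, and none rose without any of the other 4 libraries. Between D11 and D45, 5 rose without D11 A or D45 A, 6 without D11 B and 10 without D45 B. The falls in that comparison were 1 without D11 B, 2 without D11 A or D45 B, 4 without D45 A and 13 without D28 B.

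FOXJ1 stood at 6.11 and 7.78 CPM in the D11 libraries, 11.7 and 10.6 CPM on D28 and 19.1 and 13.6 CPM on D45. In these CPM the days did not overlap. The test further scales each library by a TMM factor, which the CPM given here leave out. The factors ran from 0.8435 (D11 B) to 1.1689 (D45 A). With them FOXJ1 in D45 B (factor 1.1074) did not lie above D28 A (factor 0.9428). The rise from D11 to D45 passed the test (log2 fold change 0.82 ± 0.25 (SE), adjusted p = 0.044). The steps from D11 to D28 (0.42 ± 0.25, adjusted p = 0.26) and from D28 to D45 (0.39 ± 0.25, adjusted p = 0.32) did not.

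CCNO, SNTN and CFAP157 were nearly or wholly undetected before D45, and CFAP157, with 2 UMIs in each D45 library and none before, was the 1 member with too few counts to test. CCNO gave 8 UMIs in both D11 libraries together, 8 on D28 and 942 on D45, 112-fold more CPM than on D28 (95% interval for counting error 56.5 to 260). SNTN gave no UMI on D11 or D28 and 176 on D45, at least 55.7-fold above what 3 UMIs over both D28 libraries would give. In D45 A and D45 B respectively, CCNO stood at 5.19 and 2.59 CPM and SNTN at 1.01 and 0.449 CPM. Both genes entered the fit through their D45 counts alone, so no test of their rise is given.

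Among the dynein genes, DNAI1, an intermediate chain of the outer arm, was not called between D11 and D28 and then rose, with 4.01 and 3.19 CPM on D11, then 2.62 and 4.89 (D28) and lastly 20.5 and 13.2 (D45) (log2 fold change 2.04 ± 0.32 against D28, adjusted p = 0.017). DNAH5, an outer arm heavy chain, fell and then rose, with 13.2 and 11.7 CPM on D11, then 5.61 and 7.16 (D28) and lastly 31.6 and 22.1 (D45). Its fall by 1.23 ± 0.21 on the log2 scale (adjusted p = 0.0083) and its later rise of 1.93 ± 0.21 (adjusted p = 0.0074) both passed the test. DNAH12, an inner arm heavy chain, rose from 5.15 and 9.67 CPM on D28 to 31.4 and 15.4 on D45 (1.53 ± 0.37, adjusted p = 0.047). DNAH1, another inner arm heavy chain, rose from 2.50 and 2.33 CPM on D11 to 7.501 and 5.485 on D45 (1.01 ± 0.25, adjusted p = 0.019), and DNAH10 was not called between any days. The lower D45 library of each of DNAI1, DNAH5, DNAH12 and DNAH1 lay above both libraries of the earlier days.

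Other dynein genes fell, either from D11 to D45 or from D11 to D28 alone. DNAH17, which encodes an outer arm heavy chain known from sperm, fell from 10.0 and 11.4 CPM on D11 to 3.62 and 3.11 by D28 and 2.22 and 1.96 by D45 (log2 fold change -2.77 ± 0.26 for D45 against D11, adjusted p = 0.0006), the largest fall of any member. DNAI2, the partner of DNAI1 in the outer arm, went from 9.71 and 11.8 CPM on D11 to 6.40 and 4.44 on D45 (-1.41 ± 0.29, adjusted p = 0.0098). The 2 intermediate chains of the outer arm thus moved in opposite directions in whole organoids. DNAI3 and DNAH6, which belong to inner arms, also fell from D11 to D45 (-0.78 ± 0.16 and -0.84 ± 0.22, adjusted p = 0.012 and 0.023), and DNAH11 and DNAH7 fell from D11 to D28 (-1.74 ± 0.35 and -1.13 ± 0.28) without a called change from D11 to D45.

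Of the radial spoke genes, RSPH1 was the only member to rise from D11 to D28, from 4.42 and 6.29 to 16.0 and 13.0 CPM (1.19 ± 0.32, adjusted p = 0.036). RSPH14 rose later, from 0.861 and 0.969 CPM on D28 to 5.58 and 2.33 on D45 (1.95 ± 0.45, adjusted p = 0.042), and RSPH6A fell from D11 to D45 (-1.21 ± 0.27, adjusted p = 0.013). Values for RSPH3, with 22539 UMIs in all, stayed within 20.4 to 35.4 CPM in the 6 libraries. TEKT1 dipped, with 7.56 and 8.23 CPM on D11, then 2.87 and 3.35 (D28) and lastly 10.5 and 6.05 (D45), and passed the test in both steps (-1.61 ± 0.28 and 1.26 ± 0.28, adjusted p = 0.0092 and 0.040).

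Of 29 CFAP genes tested, 6 rose and 2 fell from D11 to D45. CFAP73 dipped on D28 and then rose (0.290 and 0.318 CPM on D28, 2.33 and 1.497 on D45, log2 fold change 2.50 ± 0.36, adjusted p = 0.014). CFAP65 and CFAP126 rose from D11 to D45 by 2.01 ± 0.39 and 1.94 ± 0.30 (adjusted p = 0.0084 and 0.0036). CFAP99 rose by 1.60 ± 0.44 (adjusted p = 0.029), CFAP299 fell from D11 to D28 by 1.196 ± 0.27 (adjusted p = 0.022), and CFAP94 was not called between any days. From D11 to D45 CFAP20DC fell by 1.03 ± 0.23 and CFAP298-TCP10L by 0.90 ± 0.17 (adjusted p = 0.015 and 0.0083). CFAP36, CFAP46 and CFAP20, with 65067, 64509 and 63080 UMIs, passed the test between no pair of days, and CFAP20, which sits at a junction inside the doublet, kept between 67.5 and 93.3 CPM in all libraries. The summed level of the floor plate-like markers went from 2923 and 2857 CPM on D11 to 1564 and 2375 by D28 and 552 and 711 by D45, and that of the ciliated-like markers that are no members was 394, 375, 379, 491, 500 and 407 CPM in D11 A to D45 B. The part of such shifts in the members' changes was not tested, and in sums over whole organoids fewer cells of a type and less RNA per cell cannot be told apart.

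**Figure D1:**
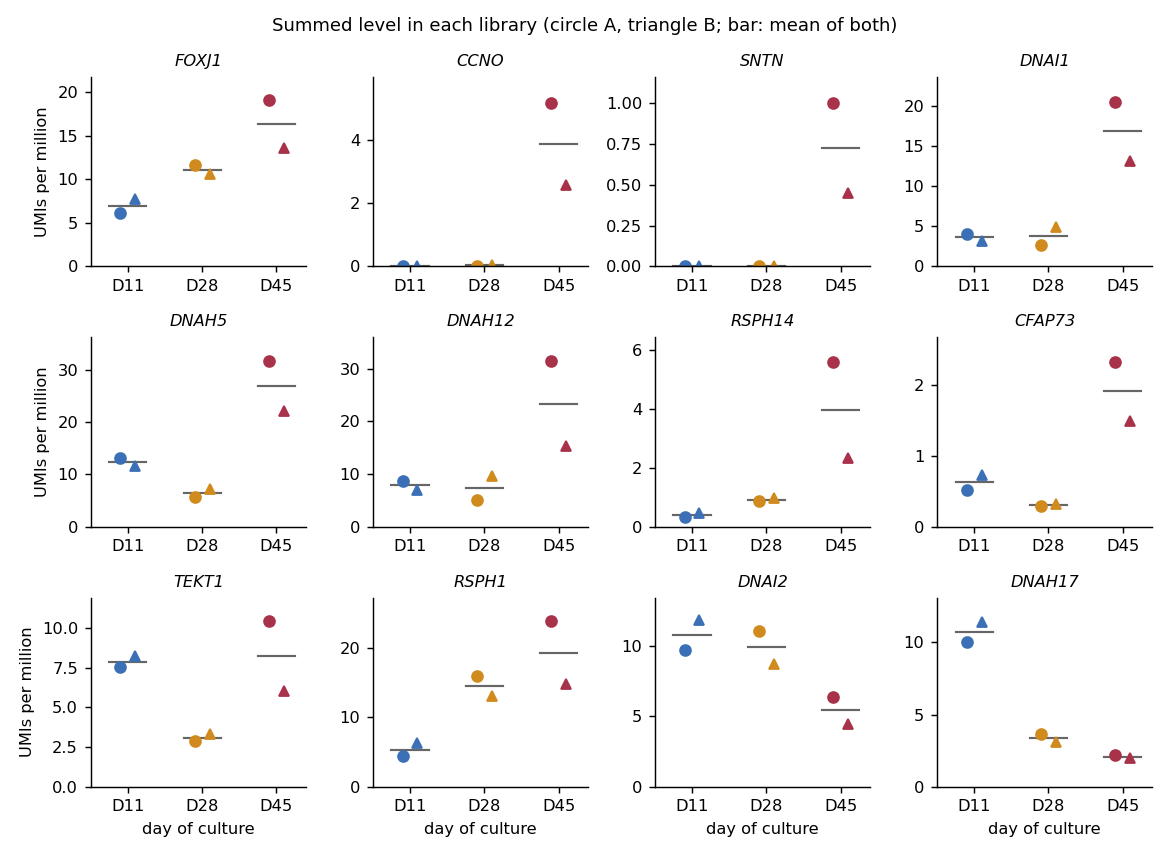
Level of 12 members in each library, in CPM summed over all kept cells, by day of culture, with circles for library A, triangles for library B and a bar at their mean. CCNO and SNTN were near or at 0 until D45, DNAI1, DNAH12 and RSPH14 were high on D45 alone, TEKT1 and DNAH5 dipped on D28, and DNAH17 was lower on each later day.

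Most members had their highest level in a small cluster of cells, almost all of D45. A cluster of 775 cells, 583 of D45 A (2.90% of the library), 191 of D45 B (1.04%) and 1 of D28 B, had the markers of ciliated cells. The members were left out of the genes used for clustering, but genes expressed with them were not, so the levels that follow describe the cluster and were not tested. Of the 56 members, 51 had their highest level of all 27 clusters there, 23 of them at over 10 times the next cluster, and the median ratio to the next cluster was 8.26. CCNO reached 156 and 144 CPM in the ciliated-like cells of D45 A and D45 B, FOXJ1 455 and 574 CPM and SNTN 27.4 and 25.9 CPM. These few cells held 84.5% and 77.7% of the CCNO UMIs of their libraries, 66.9% and 59.1% of those of FOXJ1, and a median over the members of 35.4% and 25.6%. For 10 members the share was over 50% in both libraries. Of the abundant CFAP298-TCP10L these cells held 12.7% and 6.95%, and of CFAP20 5.10% and 2.42%. Among cells of at least 2000 UMIs, thinned to that number, the 193 and 100 ciliated-like cells left showed 16.7 and 15.9 members on average, against 1.71 to 2.08 over all such cells of the 6 libraries.

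The other 5, CFAP20, CFAP97, TEKT5, DNAH17 and CFAP97D1, were highest in another cluster. DNAH17 reached 3.01 and 5.07 CPM in the ciliated-like cells, below the 21.1 and 19.8 CPM of the D11 floor plate-like cells, which held 86.6% and 86.0% of all its D11 UMIs. In the cells classed as floor plate-like on the later days, which lay in other clusters than those of D11, its level was 3.24 and 3.30 CPM on D28 and 0.623 and 1.78 on D45. CFAP97D1 was highest in a neuron-like cluster, with 17.6 and 21.5 CPM in the neuron-like cells of D11 against 1.24 and 1.52 CPM in the floor plate-like cells.

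With the ciliated-like cells left out, more members fell than rose between D11 and D45. Of 55 tested, 2 rose and 12 fell from D11 to D28 (12.6% and 10.6% of all 22148 genes), 3 rose and 3 fell from D28 to D45 (4.52% and 5.03%), and 6 rose and 17 fell from D11 to D45 (17.3% and 17.5%), where CCNO and SNTN are again 2 of the 3 and of the 6 rises. The median log2 fold change of the other 53 for the last was -0.41, beside -0.01 over all genes. Of the 15 rises from D11 to D45, 9 were no longer called, among them DNAH5, DNAI1, DNAH12, CFAP73, CFAP65, RSPH1 and FOXJ1. A further 10 members fell, among them CFAP44 (-1.52 ± 0.19, adjusted p = 0.0017), DNAH7 (-1.59 ± 0.25, adjusted p = 0.0035), TEKT1 (-1.60 ± 0.24, adjusted p = 0.003) and DNAH11 (-1.85 ± 0.32, adjusted p = 0.0053). FOXJ1 fell from D28 to D45 (-1.02 ± 0.24, adjusted p = 0.046), as did RSPH4A, a spoke head protein (-0.99 ± 0.20, adjusted p = 0.032), and DNAI2 (-1.72 ± 0.27, adjusted p = 0.017). The cells left out are those with the most member RNA, so leaving them out lowers the D45 levels by construction. For the counts with a library left out that follow, shares of all genes are not given. The falls from D11 to D45 ranged from 8 without D11 A to 27 without D28 B, with 10 without D11 B or D45 A and 9 without D45 B, and the rises were 1 without D11 A or D45 A, 2 without D11 B, 3 without D45 B, 9 without D28 B and 11 without D28 A. From D28 to D45, nothing was called without D45 A or D45 B, 8 rises and 14 falls were called without D28 B, 9 falls without D28 A, and 2 rises and 1 fall without D11 A or D11 B. From D11 to D28, 2 fell without D11 A, 3 without D11 B and 18 without D28 B, and 9 rose without D28 B, 3 without D28 A and none without any of the others.

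Outside the ciliated-like cells DNAH5 rose from D28 to D45, by 1.28 ± 0.18 on the log2 scale (adjusted p = 0.013), and CCNO and SNTN left traces on D45. CCNO stood at 1.47 and 1.15 CPM in neuron-like and at 0.753 and 0.714 CPM in astrocyte-like cells, where D28 had given at most 0.265 CPM. SNTN stood at 0.441 and 0.275 CPM in neuron-like and at 0.251 and 0.0892 CPM in astrocyte-like cells. It was not seen in dopaminergic neuron-like cells, but these were only 65 and 286 cells in D45 A and D45 B. Levels as low as these could go unseen there. The ciliated-like cells of the same libraries held 156 and 144 CPM of CCNO and 27.4 and 25.9 CPM of SNTN. Among thinned cells, 10 or more members were seen in 0.336% and 0.0390% of neuron-like cells of D45 A and D45 B. In ciliated-like cells the shares were 89.6% and 86.0%. The part of free RNA, of doublets and of cells placed in the wrong class in the traces was not tested.

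FOXJ1-positive cells, those with at least 1 FOXJ1 UMI, made up 5.88% and 5.86% of the D11 libraries, 6.61% and 7.56% of D28 and 3.79% and 3.31% of D45. Thinned to 2000 UMIs, the shares were 1.27%, 1.66%, 1.63%, 1.44%, 1.69% and 1.26%, and the ranges of the 3 days overlapped. As the summed level of FOXJ1 was highest on D45, no order of the days was read from these shares. In the D11 floor plate-like cells 10.2% were FOXJ1-positive in both libraries (95% Wilson intervals 9.47 to 11.0% and 9.59 to 10.8%). The neuron-like cells stood at 0.645% and 1.03% at a similar median depth (11170 and 10300 UMIs beside 10550 and 10240). Other progenitors of D11 lay between, with 3.59% and 5.27% of mitotic-like and 4.05% and 7.19% of neural progenitor-like cells. Thinned, the floor plate-like shares were 2.37% and 2.42% against 0.0740% and 0.192% of neuron-like cells. Thinned mitotic-like cells stood at 0.508% and 0.876% and neural progenitor-like cells at 0.356% and 1.52%. The floor plate-like cells of D11 lay in 2 clusters, of 4852 and 7222 and of 1424 and 1859 cells in D11 A and D11 B, and those of D28 almost wholly in 2 others, of 2760 and 4270 and of 992 and 433 cells in D28 A and D28 B. The larger D28 cluster was led by the interferon response genes IFI6, ISG15 and MX1 and had 7 floor plate-like markers, FOXA2 and SHH not among them, beside 8 of the longer list of ciliated-like markers, so values of the 2 days are from different kinds of cells and their difference was not tested. The D28 floor plate-like cells reached 22.9% and 19.9% (4.23% and 3.30% thinned), and their FOXJ1 level was 23.2 and 19.7 CPM. On that day 0.412% and 0.726% of the neuron-like cells were FOXJ1-positive, 6.67% and 3.14% of the neural progenitor-like and 5.56% and 4.79% of the astrocyte-like cells. The level in the D11 floor plate-like cells was 10.9 and 11.5 CPM. In the ciliated-like cells of D45, 31.7% and 49.2% were FOXJ1-positive, at a median depth of 1101 and 2285 UMIs, and 35.2% and 36.0% once thinned. Astrocyte-like cells of D45 stood at 12.3% and 11.5% (3.05% and 2.65% thinned), above the 1.56% and 0.973% of the neuron-like cells, whose median depth was 1016 and 990 UMIs and whose thinned shares were 0.723% and 0.623%. Intervals cover counting error only.

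**Figure D2:**
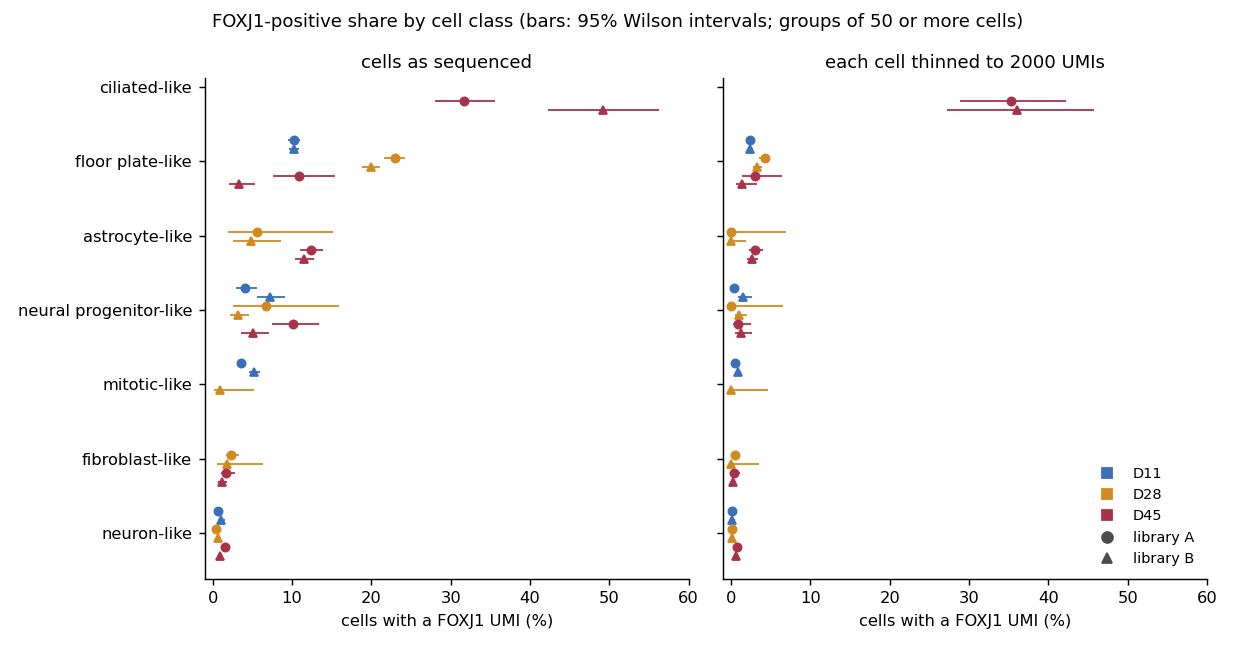
Share of cells with a FOXJ1 UMI in 7 cell classes, as sequenced (left) and with the cells of at least 2000 UMIs thinned to that number (right), with colours for days, circles for library A, triangles for library B and 95% Wilson intervals. The ciliated-like cells stand at 31.7% and 49.2% and, thinned, at 35.2% and 36.0%, and the floor plate-like cells of D11 stand at 10.2% in both libraries and, thinned, at 2.37% and 2.42%.

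FOXJ1-positive cells carried more axoneme RNA than other cells on every day, and by far the most on D45. UMIs were summed over the FOXJ1-positive and over the other cells of each library and compared within libraries. Of 54 members tested, FOXJ1 itself left out, D11 gave 25 higher and 1 lower, D28 37 higher and 1 lower, and D45 50 higher and none lower (48 of 52 without CCNO and SNTN). Over all 20848 genes tested, D11 gave 4.48% called higher and 7.31% lower, D28 23.2% and 18.2%, and D45 22.3% and 21.4%. The median log2 fold change of the members was 0.40, 0.75 and 2.72, beside -0.05, 0.00 and -0.06 over all genes. Without the library as a block, no member was called on D11 and 20 were called higher on D28, against 46 on D45. The D11 calls numbered 6 without D11 A, 11 without D11 B, 7 with at least 2 FOXJ1 UMIs required and 1 after thinning, and the D28 calls 5 after thinning, while 45 of 53 were still called on D45. The median log2 fold change after thinning was 0.50, 0.54 and 2.71 on the 3 days, without the block it was 0.40, 0.74 and 2.75, and with at least 2 FOXJ1 UMIs required it was 0.24, 0.59 and 3.61. At an unadjusted p under 0.05 none was lower on D45 either, and DESeq2 called 49 higher and none lower. Shares of all genes are not given for the counts under these alternatives.

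On all 3 days 23 members were higher, among them the outer arm genes DNAI1, DNAI2 and DNAH9, the spoke genes RSPH1, RSPH3 and RSPH4A, TEKT1, and CFAP44, CFAP45, CFAP46, CFAP52 and CFAP61. Another 14 were called on D28 and D45 but not on D11, such as DNAH5, DNAH11, CFAP43 and CFAP77, and 12 on D45 alone, such as RSPH9, RSPH14 and TEKT2. CCNO and SNTN are counted in the 12, but with so few UMIs before D45 they could not have been called earlier. RSPH1 was among the members with the largest folds on D11, at 11.4 and 11.5 CPM in FOXJ1-positive cells against 3.88 and 5.77 in other cells (1.26 ± 0.16, adjusted p = 0.00026), and stood at 33.2 and 24.8 against 12.9 and 11.13 CPM on D28 and at 137 and 73.9 against 13.2 and 10.1 CPM on D45 (3.27 ± 0.14, adjusted p = 1.7e-08). DNAI2 was higher by 0.99 ± 0.12, 1.52 ± 0.12 and 3.32 ± 0.12 on the 3 days, and DNAH7 by 0.96 ± 0.10, 1.30 ± 0.11 and 3.84 ± 0.10. CFAP251 was higher by 0.86 ± 0.17, 1.02 ± 0.16 and 2.39 ± 0.16. CFAP45 was higher by 0.81 ± 0.12, 1.79 ± 0.11 and 3.64 ± 0.11 (adjusted p = 0.0007, 4.9e-07 and 3.6e-09). All of the DNAI and RSPH genes, 8 of 9 DNAH genes, 27 of 29 CFAP genes and 3 of 4 TEKT genes were higher on D45.

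CCNO showed no UMI in the FOXJ1-positive cells of D11 and stood at 51.0 and 28.0 CPM in those of D45 against 0.869 and 0.520 CPM in other cells. SNTN stood at 7.16 and 3.98 CPM against 0.425 and 0.162 CPM on D45, and CCNO was called higher on D45 (adjusted p = 1.9e-08). The largest folds on D45 among the rest were those of CFAP73 (4.64 ± 0.22), CFAP65 (4.33 ± 0.19), CFAP161 (4.26 ± 0.23), TEKT1 (4.15 ± 0.12) and CFAP58 (4.11 ± 0.22). CFAP20 was higher by 0.50 ± 0.07 and CFAP36 by 0.54 ± 0.07 on D45 (adjusted p = 0.00012 and 9.3e-05), and CFAP97 was not called on any day. CFAP94 (0.47 ± 0.08) and DNAH10 (1.46 ± 0.13) were higher on D45 alone.

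CFAP97D1 went the other way. It was lower in FOXJ1-positive cells on D11 (0.784 and 1.84 against 3.23 and 4.05 CPM, -1.43 ± 0.26, adjusted p = 0.0035) and on D28 (-1.38 ± 0.22, adjusted p = 0.00043), the 1 member called lower on either day. DNAH17 was higher on D11 (18.3 and 17.9 against 9.38 and 10.8 CPM, 0.85 ± 0.13, adjusted p = 0.0014) but not on D28 (-0.19 ± 0.18, adjusted p = 0.44) or D45 (-0.52 ± 0.25, adjusted p = 0.12).

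The FOXJ1-positive cells also differed from the others in kind. On D11 their summed floor plate-like markers were 4585 and 3906 CPM against 2793 and 2752, and their neuron-like markers 304 and 359 against 1540 and 1735. On D45 their neural progenitor-like markers were 12830 and 17100 CPM against 4413 and 5565, their astrocyte-like markers 1038 and 1136 against 368 and 412, and the ciliated-like markers that are no members 2463 and 1676 against 315 and 304, with all 23 markers of that list in the matrices detected in each. They were also deeper, with a median of 12725.5 and 16434 UMIs against 2143.5 and 4036 on D45. The part of cell type and depth in these differences was not tested. Ciliated-like cells were 185 of 762 and 94 of 609 FOXJ1-positive cells on D45, and without any ciliated-like cell, an alternative chosen after seeing the data, 39 members were higher and 1, DNAH17, was lower (19.5% and 17.5% of all 20694 genes), with a median log2 fold change of 1.05.

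**Figure D3:**
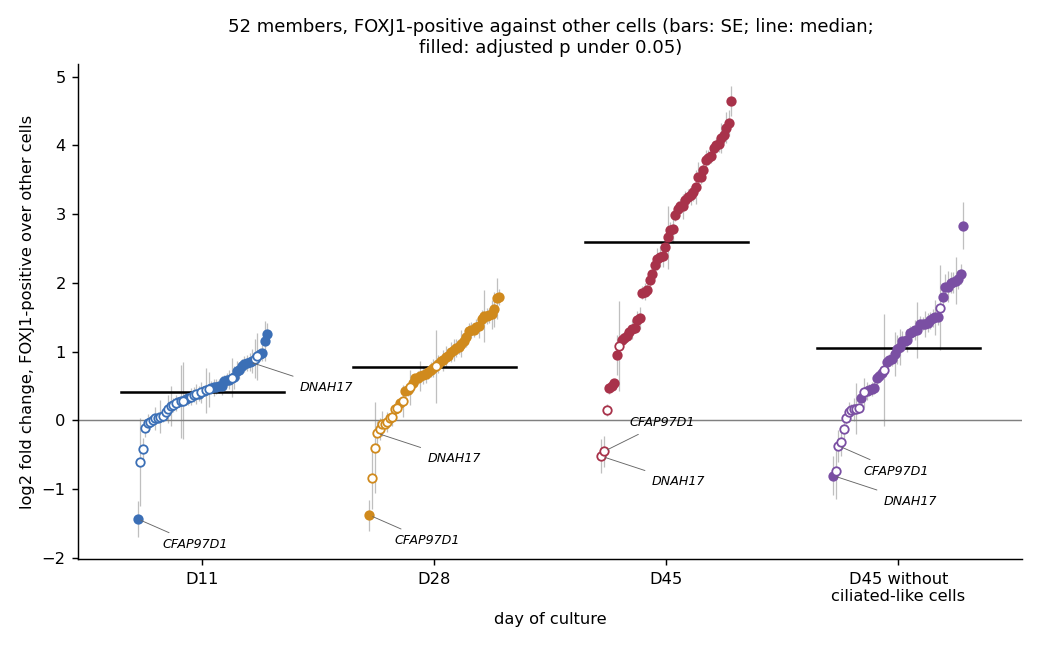
Log2 fold change between FOXJ1-positive and other cells for 52 members (CCNO and SNTN, near 0 UMIs before D45, and FOXJ1 left out) on each day and on D45 without ciliated-like cells, sorted within each column, with SE bars, a line at the median and filled points for an adjusted p under 0.05. The points rise from D11 to D45, DNAH17 passes from above to below 0, and CFAP97D1 is below 0 throughout.

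The fold in FOXJ1-positive cells differed between D45 and D11 for 49 of 54 members when the difference itself was tested, larger on D45 for 48 (47 of 52 without SNTN and CCNO, which had no UMI in the FOXJ1-positive cells of D11) and smaller for 1, DNAH17, beside 15.6% and 7.74% of all genes. The median change in log2 fold change was 2.33. Without the ciliated-like cells 25 were larger and 1 smaller (13% and 5.39% of all genes), with a median of 0.61. After thinning 27 were larger and none smaller, with a median of 2.17, and no share of all genes is given for that count.

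Most genes listed as working with the members under other names were also higher in FOXJ1-positive cells on D45. Over all genes, 4.48%, 23.2% and 22.3% were called higher on D11, D28 and D45, and 7.31%, 18.2% and 21.4% lower. All 15 tested genes of dynein assembly and docking were called, with 9 higher on D11 and 11 on D28, and all 32 tested genes of the central pair, nexin link and microtubule ruler were higher, with 15 on D11 and 26 on D28. Of 22 genes of intraflagellar transport and the BBSome, which primary cilia use too, 4, 17 and 19 were higher on the 3 days and 1 was lower on D28. Their median log2 fold change on D45 was 0.77, beside 2.02 for dynein assembly and docking and 2.18 for the central pair list. It was 2.22 for the regulators of multiciliation and 0.87 for the centriole amplification genes that follow. Differences between lists were not tested. Among 10 regulators of multiciliation 2 were higher on D11, 4 on D28 and 8 on D45. RFX2, an RFX factor of ciliary genes, was higher on all 3 days (0.61 ± 0.08, 1.28 ± 0.08 and 2.96 ± 0.08), and MCIDAS, which starts multiciliation, led the called genes with a symbol that are no members on D45 (5.76 ± 0.19, adjusted p = 4.9e-09). Of 10 genes of centriole amplification 1 was higher on D11, 1 on D28 and 6 on D45, CDC20B by 5.35 ± 0.12 and DEUP1 by 2.04 ± 0.11. On D28, 2 of the 10 were lower. Whether MCIDAS and CDC20B passed the filter on low counts through the FOXJ1-positive cells of D45 alone is not shown. Other leading genes on D45 were CD93, ANKRD66, RP1, C20orf85, TMEM212, HOATZ and FAM166B, at log2 fold changes from 4.97 to 5.27.

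Within the D11 floor plate-like cells, FOXJ1-positive cells held more RNA of some axoneme genes. There were 640 FOXJ1-positive and 5636 other cells in D11 A and 926 and 8156 in D11 B. Of 52 members tested, 15 were higher and none lower (1.2% and 1.92% of all 17718 genes), with a median log2 fold change of 0.26 beside -0.00 over all genes. At an unadjusted p under 0.05, 26 were higher and none lower, and DESeq2 called 12 higher and none lower. Shares of all genes are not given for these counts. In 38 of the 49 members with over 3 UMIs in each sum, the ratio of FOXJ1-positive to other cells was above 1 in both libraries, in 1, CFAP126, it was below 1 in both, and the median ratio was 1.23 in D11 A and 1.18 in D11 B. Such ratios were computed for members alone, so 38 of 49 has no share of all genes beside it. The 15 called members had ratios from 1.14 to 2.06, all above 1 in both libraries.

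Outer arm and spoke genes were among them. CFAP77, a protein of the doublets, had the largest fold, at 7.19 and 4.99 CPM in FOXJ1-positive against 3.50 and 3.27 CPM in other floor plate-like cells (0.79 ± 0.17, adjusted p = 0.021). RSPH1 stood at 15.5 and 15.1 against 8.61 and 10.3 CPM (0.65 ± 0.16, adjusted p = 0.039), CFAP44 at 20.7 and 21.2 against 14.5 and 13.6 CPM (0.56 ± 0.09, adjusted p = 0.0039) and DNAI2 at 19.8 and 21.3 against 13.4 and 14.3 CPM (0.54 ± 0.11, adjusted p = 0.016). The other called members were RSPH4A, DNAH9, CFAP61, CFAP52, DNAH7, CFAP69, CFAP410, CFAP46, CFAP70, DNAH6 and CFAP298-TCP10L, with log2 fold changes from 0.21 to 0.48. CFAP20, CFAP36, CFAP20DC, CFAP100 and CFAP97, the members with the most UMIs among those not called, had values from -0.01 to 0.17.

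**Figure D4:**
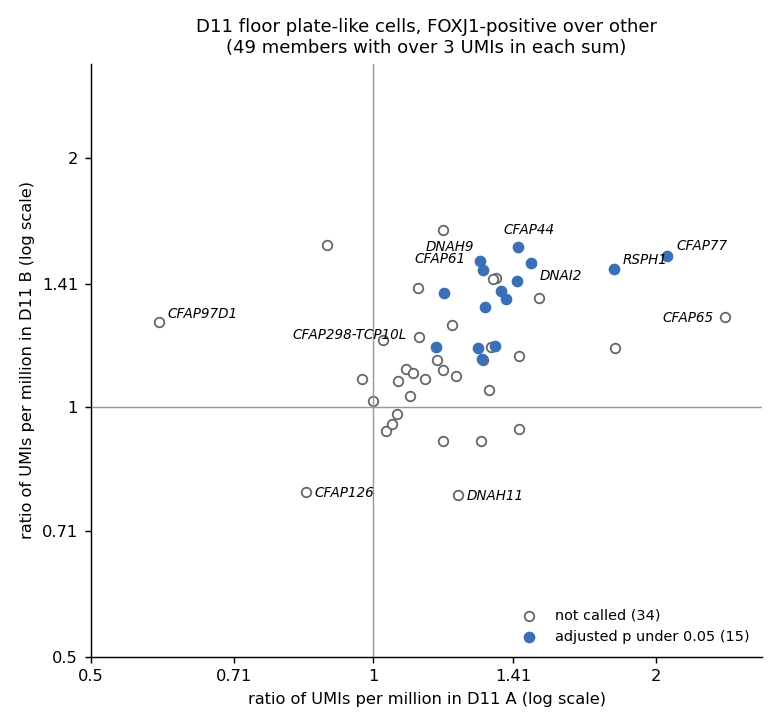
Ratio of the level in FOXJ1-positive to that in other D11 floor plate-like cells for 49 members, D11 A across and D11 B up, both on log scales, with filled points for an adjusted p under 0.05. All 15 called members lie above 1 in both libraries, with CFAP77 and RSPH1 farthest out, and 38 of the 49 lie there. Ratios of genes that are no members were not computed.

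These calls moved with the setting, and shares of all genes are not given for the other settings. No member was called without the library as a block, with at least 2 FOXJ1 UMIs required (64 and 90 cells) or after thinning, with a median log2 fold change of 0.26, 0.26 and 0.30 in those fits. There were 6 calls when D11 cells were clustered alone and 13 with doublets removed, and the fit could not be run without either D11 library. The D11 cells outside the floor plate-like class still held cells with floor plate-like markers, since a mitotic-like cluster of 971 and 1149 cells in D11 A and D11 B had 7 of these markers beside 6 mitotic-like ones and another, of 192 and 338 cells, had 5 beside 3. Over all D11 cells outside the class, 18 members were higher and 1, CFAP97D1, was lower in FOXJ1-positive cells (12.9% and 12.8% of all genes), and 11 of the 15 were called there too, with DNAI2 at 1.35 ± 0.16 and DNAH7 at 1.22 ± 0.17. Those FOXJ1-positive cells also held more floor plate-like marker RNA (3120 and 2675 against 1297 and 1293 CPM), more mitotic-like marker RNA (2817 and 2816 against 1649 and 1633 CPM) and more UMIs per cell (median 17117 and 15843 against 10896.5 and 3325), whereas within the floor plate-like class the floor plate-like markers differed less (5279 and 4462 against 5115 and 4356 CPM). The ciliated-like markers that are no members stood at 558 and 505 against 453 and 426 CPM within the class, with TP73 and CAPS at 0 in the FOXJ1-positive cells of D11 A and CAPS at 0 in those of D11 B and in the other cells of both. Mitotic-like markers stood at 388 and 318 against 292 and 314 CPM. The part of these differences was not tested.

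Of the dynein assembly and docking genes 4 of 15 were higher, and of the central pair, nexin link and ruler genes 7 of 31, where 1.2% of all genes were higher and 1.92% lower. EdgeR called none of 10 centriole amplification genes (at an unadjusted p under 0.05, none higher and 2 lower) and none of 22 intraflagellar transport genes (2 higher and none lower). No shares of all genes are given at an unadjusted p. RFX2 was the 1 of 8 regulators to be higher (0.18 ± 0.04, adjusted p = 0.035). CCNO gave 5 UMIs in the floor plate-like cells of both D11 libraries together, all in FOXJ1-negative cells. The leading genes that are no members were EFEMP1 (1.23 ± 0.25) and SCG2 (0.88 ± 0.18), with 3 genes of the lists, DNAAF1 (0.96 ± 0.24), DNAJB13 (0.83 ± 0.18) and SPEF1 (0.82 ± 0.19), among them, followed by INSRR, IL15, C11orf97, EFCAB12 and PIK3R6.

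Inside the ciliated-like cells of D45 most members stood at similar levels with and without a FOXJ1 UMI. Without FOXJ1, they summed to 13970 and 11960 CPM in FOXJ1-positive and 12410 and 12210 CPM in FOXJ1-negative ciliated-like cells, although the latter had a median of 900 and 1047 UMIs against 13460 and 19740. Of 49 members above 10 CPM in all 4 sums, 23 were higher and 7 lower in FOXJ1-positive cells in both libraries, with median ratios of 1.15 and 1.07. SNTN stood at 26.4 and 23.9 CPM with FOXJ1 and 31.2 and 40.2 CPM without. Of these 49, CCNO alone differed by more than 2-fold in both libraries, at 192 and 159 CPM in FOXJ1-positive against 13.4 and 35.7 CPM in FOXJ1-negative cells. DNAH17, which is below 10 CPM in 3 of the 4 sums, stood at 1.89 and 3.23 CPM with FOXJ1 and 7.43 and 17.9 CPM without. Among cells with at least 2000 UMIs the values of CCNO were 192 and 159 against 13.5 and 31.5 CPM, the FOXJ1-negative ones from 5 UMIs in each library. These levels are a description, as the cells were grouped by genes expressed with the members.

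**Figure D5:**
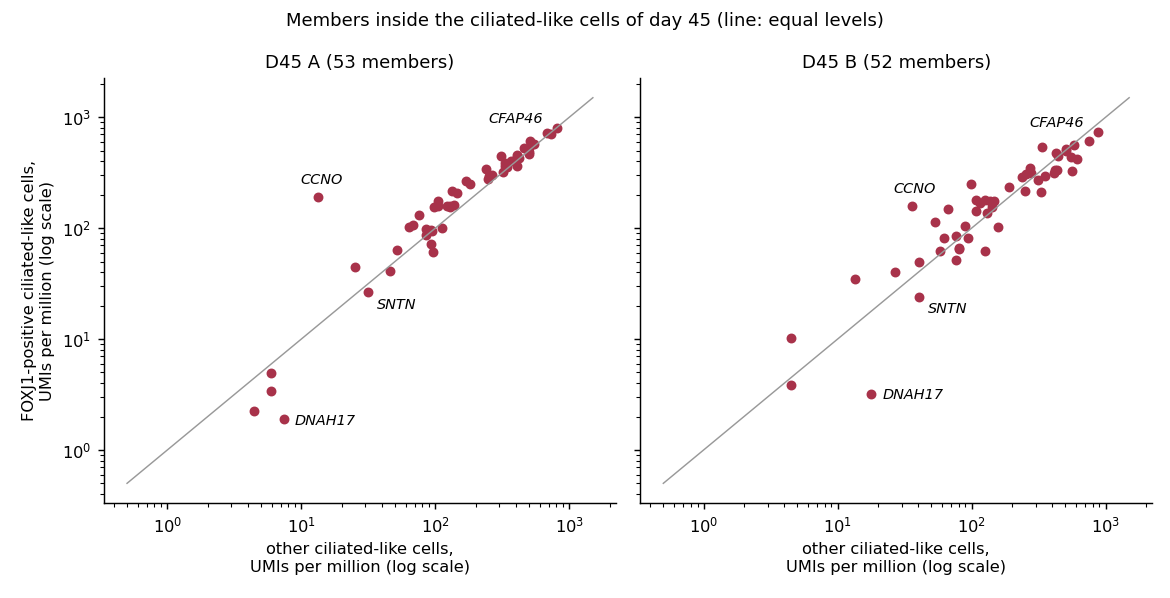
Level of the members in FOXJ1-positive against other ciliated-like cells of D45 A (left) and D45 B (right), in CPM on log scales, with a line where both are equal and members at 0 in either sum left out. Most members lie near the line, and CCNO lies above it, at 192 against 13.4 and at 159 against 35.7 CPM.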

How the data were processed

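Whole pMLOs were profiled with droplet single-cell 3′ RNA sequencing. The authors deposited, per library, raw UMI counts by gene and cell from Cell Ranger, not normalized and aligned to Sscrofa11.1, and the labels also name Seurat 4.3.0.

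Cells with 200 to 7000 genes and at most 10% mitochondrial UMIs were kept. They were clustered over all libraries (2000 variable genes, 30 components, 20 neighbours, Leiden resolution 0.8, seed 1, scikit-learn 1.9.0 and igraph 0.11.9), and a cluster was named from at least 3 markers. Doublet calls (7283 cells) were removed only as an alternative. Counts were summed per library, or per library and FOXJ1 status, and tested with edgeR 4.0.16 (R 4.3.3, TMM, quasi-likelihood, Benjamini-Hochberg adjusted p under 0.05 over all genes), with the library as a block for FOXJ1 status. DESeq2 1.42.0, other filters, cell sets and left-out libraries were alternatives. The fits were also run on simulated counts with the same spread for all genes and no library effect. The outcome is not given here, and such counts cannot show how the fits behave on these libraries. Shares have 95% Wilson intervals.

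The members and lists were chosen with earlier results of these data known. Named are FOXJ1, SNTN and CCNO, the 10 largest called folds in each direction, the 5 members with the most UMIs not called, members called against the majority, the 10 members with the most UMIs, 10 leading other genes (1 is not reported here) and up to 4 examples per list. Libraries held 106805311 to 180034791 UMIs.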

Additional observations from a re-analysis of the deposited data

Results flagged for a closer look

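The difference between FOXJ1-positive and other cells changed between D11 and D45, tested as an interaction in edgeR with the library as a block. It was larger on D45 for 48 of 54 members (47 of 52 without CCNO and SNTN, which had no UMI in the FOXJ1-positive cells of D11) and smaller for 1, beside 15.6% and 7.74% of all genes. The change in log2 fold change was largest for DNAH11 (4.19) and CFAP77 (4.13), neither of which was called on D11, and was 3.50 for DNAI1, 3.49 for CFAP73, 3.48 for CFAP58, 3.47 for DNAH12, 3.46 for CFAP44, 3.43 for CFAP65, 3.42 for TEKT1 and 3.33 for CFAP161. DNAH17 was the exception, with a change of -1.37. Without ciliated-like cells, an alternative chosen after seeing the data, 25 members had a larger and 1 a smaller difference on D45 (13% and 5.39% of all genes). The median change was then 0.61, against 2.33 with them.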

How the results depend on the processing

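Each day had 2 libraries, so all counts carry wide error, and CFAP157, with 4 UMIs in all, could not be tested. Counts of members in this section have no share of all genes beside them and are not read as results about the members. Of 2083 values of 178 folds of named genes under the alternatives, 1780 kept direction and side of the threshold, 270 were no longer past it, 31 newly passed it and 2 reversed. Both reversed values were CFAP73 in FOXJ1-positive cells of D11, at -1.06 with at least 2 FOXJ1 UMIs and -6.04 after thinning (adjusted p = 0.797 and 0.905). The cause was not tested.

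In whole organoids, D28 against D11 gave 3 members higher by DESeq2's Wald test, 0 with all barcodes and 0 to 6 with 1 library left out, with 6 lower from all barcodes and 2 to 17 with 1 library left out. D45 against D28 gave 14 higher by DESeq2 and by all barcodes and 0 to 25 with 1 library left out, with 3 lower by DESeq2 and 0 to 9. D45 against D11 gave 5 to 20 higher and 1 to 13 lower with 1 library left out, and 20 higher and 4 lower from all barcodes.

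Outside ciliated-like cells, the ranges with 1 library left out were 0 to 9 higher and 2 to 18 lower (D28 against D11), 0 to 8 and 0 to 14 (D45 against D28), and 1 to 11 and 8 to 27 (D45 against D11). With FOXJ1-positive cells left out, 1 was higher on D28 than on D11 and 1 lower on D45 than on D28, where DESeq2 called 10 lower.

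Libraries of the same letter did not deviate alike on different days (correlations of deviations -0.321, 0.048 and -0.196 over 22192 genes). With 2 libraries a day, these values cannot show whether the letters stand for shared batches. With the replicate block, whole organoids gave 0 higher on D28 than on D11 and 5 higher on D45 than on D28, and outside ciliated-like cells 0 and 3 were higher on D28 and on D45 than on D11 and 1 was lower on D45 than on D28. Within a library the FOXJ1 groups are paired. Without that replicate block, D11 gave 0 members higher and 0 lower, D28 20 and 0, the change from D11 to D45 31, and the D11 floor plate-like cells 0 (17 at an unadjusted p under 0.05).

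For FOXJ1 status, at least 2 UMIs gave 7 higher and 0 lower on D11, 2 lower on D28 and 0 in the floor plate-like cells (11 at an unadjusted p under 0.05). Thinning gave 1 and 0 on D11, 5 and 0 on D28, 45 and 0 on D45, 27 for the change from D11 to D45 and 0 in the floor plate-like cells (2 at an unadjusted p under 0.05), where D11 cells clustered alone gave 6. Leaving out ciliated-like cells, chosen after seeing the data, gave 1 lower on D45 and 26 for the change. The median change was 2.33 in the main fit, 2.17 after thinning and 0.61 without ciliated-like cells. With 1 library left out, D11 gave 6 to 27 higher and 0 to 2 lower, D28 34 to 37 and 1 to 2, D45 48 to 50, and the change 46 to 50. Thinned shares of FOXJ1-positive cells were 1.27%, 1.66%, 1.63%, 1.44%, 1.69% and 1.26% from D11 A to D45 B, and shares with at least 2 UMIs 0.632%, 0.566%, 1.55%, 1.65%, 1.03% and 0.906%. The floor plate-like fit could not be run with a D11 library left out, as no residual degrees of freedom remain.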

Other observations

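Of 10 regulators of multiciliation tested in whole organoids, 1 rose and 3 fell from D11 to D28 (12.5% and 10.6% of all genes), and 3 rose and none fell from D28 to D45 (4.47% and 4.93%), by edgeR. Between D11 and D45, 3 rose and 4 fell (17.3% and 17.4% of all genes). GMNC, which acts early in the program, rose in both steps (log2 fold change 3.28 ± 0.30, adjusted p = 0.0011, and 1.096 ± 0.27, adjusted p = 0.05, just within the threshold). MCIDAS (4.65 ± 0.39, adjusted p = 0.0045) and TP73 (3.13 ± 0.37, adjusted p = 0.0084) rose from D28 to D45, and E2F5, RFX2 and RFX3 fell from D11 to D28. Of 10 genes of centriole amplification, none rose and 4 fell in the first step and 2 rose and none fell in the second, CDC20B by 4.15 ± 0.44 (adjusted p = 0.007). Levels of GMNC, MCIDAS, TP73 and CDC20B by day are not given. Whether they passed the filter on low counts only through the days where they are high is not shown. Their p-values, and the rises counted from them, are therefore not read as support. Between D11 and D45, 2 of the 10 rose and 3 fell. No difference in timing between genes was tested. GMNC was higher in FOXJ1-positive cells by 1.65 ± 0.19 on D28 and by 3.04 ± 0.18 on D45.

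CCNO UMIs were concentrated in few cells. In the ciliated-like cells, 510 UMIs came from 38 of 185 FOXJ1-positive cells of D45 A and 247 from 26 of 94 of D45 B, against 9 from 7 of 398 and 8 from 5 of 97 FOXJ1-negative cells, which were shallower.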
